A study of Mus musculus with 6 samples.

Results

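The blood endothelial genes described here are 10 genes that mark the cells lining blood vessels: Pecam1, Cdh5, Tek, Tie1, Eng, Vwf, Emcn, Esam, Plvap and Egfl7. They were chosen by name, through the gene symbol that the deposited array table gives to each probe. Under these symbols 9 genes were found with 12 probes, and Esam was found through its older symbol Esam1, which made 13 probes of 25697 on the array. All 10 genes were among the 10831 genes tested. RNA was measured on Illumina bead arrays in whole tracheas of C57BL/6 mouse embryos at the stage E18.5, shortly before birth. The control group held 3 pools of genotype Sox9+/+, and the mutant group 3 pools of genotype Sox9-/-. Per the labels the mutant embryos lacked Sox9, a transcription factor needed to form cartilage, in the mesenchyme, and had no cartilage rings. What drove the deletion was not given in the sources used here. Each pool was a random mix of 3 tracheas, which makes 9 per genotype, collected from 7 pregnant females in all.

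Blood vessels are lined by a single layer of endothelial cells. Neighbouring cells are held together by VE-cadherin (Cdh5), PECAM-1 and ESAM, and the growth and rest of the layer are governed by receptors such as Tie2 (Tek), Tie1 and endoglin (Eng). The same cells make von Willebrand factor, a clotting protein stored in granules, and carry endomucin and PLVAP mainly on veins and capillaries. The trachea holds a dense network of such vessels beneath its epithelium and between its cartilage rings. In whole-organ RNA, fewer cells of a type and less RNA per cell cannot be told apart.

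The arrays had a median raw intensity of 183 to 198 in the pools labelled control and 205 to 211 in those labelled mutant, with 14468 to 14726 probes detected per array. The array codes in the labels share 1 number and end in the letters A to C for controls and D to F for mutants. The labels do not say what the codes stand for. If the letters are positions on 1 slide, position cannot be told apart from genotype. The probe for Sox9 read background in the pools labelled control (detection p 0.358, 0.732 and 0.748) and barely more in those labelled mutant (0.0163, 0.0426 and 0.0351). Its signal was at least 1.12-fold higher in the latter. The probe passed the detection filter only through these mutant pools, so no p-value is given for it. The direction goes against the labels, but the signal lay near background, and this probe does not check them. The cartilage collagen gene Col2a1 fell from 11.70 to 5.34 on the log2 scale (change -6.36, SE 0.18, limma adjusted p = 5.66e-05). Mutant pool 1 did not detect this Col2a1 probe (detection p 0.133), so the size of the change depends on the background, and it was -4.25 without background correction. Since females contributed to pools at random, p-values here reflect only how much these pools varied. All values below are log2 intensities after background correction and quantile normalization. Each change is the mean of the pools labelled mutant minus that of the pools labelled control, with its standard error (SE) and a p-value from limma adjusted over all genes tested.

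Of the 10 blood endothelial genes, Vwf rose, Eng fell and 8 did not pass the test at an adjusted p of 0.05. Across all genes 2.16% were called higher and 3.37% lower, 5.53% in all. A count of 2 among 10 genes is too small to read against that share. Changes were below 0 in 8 of the 10 genes. Their median was -0.27, while the median over all genes was 0.01 and 48.9% of all genes were below 0. The 3 values of one group lay wholly on one side of the other in 4 of the 10 genes (Eng, Vwf, Plvap and Egfl7), against 31.4% of all genes. At an unadjusted p below 0.05 the count was 5 of 10, against 25.1% of all genes.

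**Figure D1:**
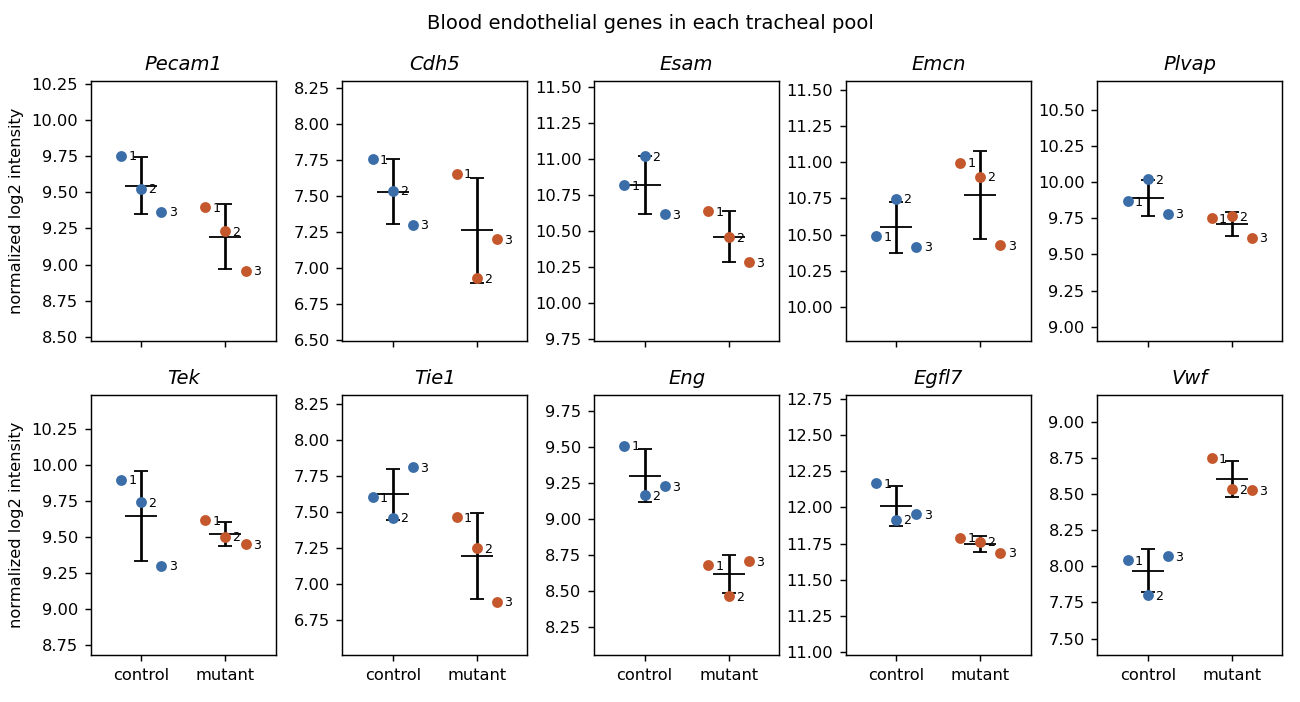
Normalized log2 intensity of the 10 blood endothelial genes (vertical axis, the same span of 1.8 in each panel) in each of the 3 pools labelled control (blue) and the 3 labelled mutant (orange). Numbers are pool numbers, and the black marks give the mean and SD. The groups stand clear of each other in Eng and Vwf, in opposite directions, and overlap in 6 genes.

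Vwf encodes von Willebrand factor, which binds platelets to an injured vessel wall. Its raw signal was 367, 327 and 406 in control pools 1, 2 and 3, and 631, 539 and 553 in mutant pools 1, 2 and 3. The standard error over the beads of one array was between 3.43% and 4.93% of these signals. On the normalized scale the control pools read 8.04, 7.80 and 8.07, and the mutant pools 8.75, 8.54 and 8.53. All mutant pools were above all control pools, and the gap between the groups was wider than the spread inside either. The level rose from 7.97 ± 0.15 to 8.60 ± 0.12 (SD, n = 3 each), a change of 0.63 (SE 0.11, limma adjusted p = 0.0320) or 1.55-fold. The 95% interval of the ratio ran from 1.28 to 1.87. In the authors' deposited table the log2 change of Vwf was 0.63 with an adjusted p of 0.0401. With control pool 1 left out, Vwf still passed (limma adjusted p = 0.0486). With control pools 2 or 3 left out the adjusted p was 0.0854 and 0.0779. With mutant pools 1, 2 or 3 left out it was 0.0701, 0.103 and 0.0762, and the call was lost in these 5 fits. The change of Vwf stayed between 0.55 and 0.68 in the 6 fits without 1 pool. It was 0.43 without background correction and 0.72 with median scaling.

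Eng encodes endoglin, a co-receptor for BMP9 and TGF-beta that is high on growing vessels. Raw signals were 775, 632 and 729 in the control pools and 610, 522 and 603 in the mutant pools. Normalized values were 9.51, 9.16 and 9.23 in the former and 8.68, 8.47 and 8.71 in the latter. Every mutant pool lay below every control pool. The mean fell from 9.30 ± 0.18 to 8.62 ± 0.13 (SD, n = 3 each), a change of -0.68 (SE 0.13, limma adjusted p = 0.0336), and the ratio of mutant to control was 0.623 (95% interval 0.507 to 0.767). In the authors' deposited table the log2 change of Eng was -0.68 with an adjusted p of 0.0408. Eng also passed when control pool 1 was left out (limma adjusted p = 0.0486), and in no other fit of this kind. The adjusted p was 0.0691 and 0.0874 when control pools 2 or 3 were dropped, and 0.0646, 0.118 and 0.0770 when mutant pools 1, 2 or 3 were. The change of Eng was -0.53 without background correction and -0.58 with median scaling.

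Vwf and Eng moved apart inside the same arrays. The log2 value of Vwf minus the mean of the other 9 genes, centred over the 6 arrays, was -0.48, -0.65 and -0.23 in the control pools and 0.43, 0.41 and 0.52 in the mutant pools. Vwf thus stood higher against the other endothelial genes in each mutant pool. For Eng the same quantity was 0.40, 0.12 and 0.32 in the control pools and -0.39, -0.42 and -0.03 in the mutant pools. These contrasts were formed after the values of both genes were seen and are given without a test.

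The Tie receptors read as follows. Tie1, an orphan receptor that modulates Tie2, had normalized values of 7.60, 7.46 and 7.81 in the control pools and 7.46, 7.25 and 6.88 in the mutant pools. The groups met at 7.46, with mutant pool 1 just above control pool 2. Its change of -0.43 (SE 0.17, 95% interval -0.83 to -0.02) did not pass (limma adjusted p = 0.181), and it was -0.23 without background correction. Tek, the receptor for the angiopoietins, read 9.90, 9.74 and 9.30 in the control pools and 9.61, 9.50 and 9.45 in the mutant pools, which overlapped. The control values of Tek spread more (SD 0.31) than the mutant values (SD 0.08), and the change of -0.12 (SE 0.16, 95% interval -0.51 to 0.26) did not pass (limma adjusted p = 0.681). Without control pool 1 the change of Tek was 0.0016.

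Of the genes for cell contacts, Pecam1 encodes an adhesion molecule of the borders between endothelial cells that platelets and white blood cells also carry. It read 9.75, 9.52 and 9.36 in the control pools and 9.40, 9.23 and 8.96 in the mutant pools. Only mutant pool 1 reached into the control range. The change was -0.35 (SE 0.15, 95% interval -0.71 to 0.01, limma adjusted p = 0.207). The dimmer probe of Pecam1 read 7.96, 8.88 and 8.27 against 7.77, 7.59 and 7.64, and its groups did not overlap. Its change was -0.70 (SE 0.22, limma adjusted p = 0.121 over all kept probes, of which 4.41% were called). Both probes of Pecam1 therefore read below 0 without passing, the dimmer one with the wider interval (-1.23 to -0.17).

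Cdh5 encodes VE-cadherin, the cadherin of endothelial junctions, and was the gene least well resolved. It read 7.75, 7.54 and 7.30 in the control pools and 7.65, 6.93 and 7.20 in the mutant pools. Mutant pool 1 lay among the control pools, and mutant pools 2 and 3 lay below them. The change was -0.27 (SE 0.20, limma adjusted p = 0.464), with a 95% interval from -0.76 to 0.22, and it was -0.14 without background correction. Leaving out 1 pool moved the change of Cdh5 between -0.47 (without mutant pool 1) and -0.10 (without mutant pool 2). Esam, an immunoglobulin-type protein of tight junctions, read 10.82, 11.02 and 10.62 against 10.64, 10.46 and 10.29, with mutant pool 1 just above control pool 3. Its change of -0.36 (SE 0.14, 95% interval -0.69 to -0.02) did not pass (limma adjusted p = 0.176).

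Of the genes of the vessel surface and diaphragm, neither passed. Emcn encodes endomucin, a sialomucin of venous and capillary endothelium. It read 10.49, 10.75 and 10.41 in the control pools and 10.998, 10.90 and 10.43 in the mutant pools. Mutant pools 1 and 2 were above all controls, and mutant pool 3 lay within them. The change of Emcn was 0.22 (SE 0.17, limma adjusted p = 0.470, 95% interval -0.19 to 0.64), and it ranged from 0.11 without mutant pool 1 (adjusted p = 0.754) to 0.40 without mutant pool 3 (adjusted p = 0.197). Besides Vwf it was the sole gene of the 10 with a change above 0.

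Plvap forms the diaphragms of fenestrated and transport-active endothelium. It read 9.87, 10.02 and 9.78 in the control pools and 9.75, 9.76 and 9.62 in the mutant pools. The groups did not overlap, but the distance between control pool 3 and mutant pool 2 was small. The change of -0.18 (SE 0.10, 95% interval -0.42 to 0.06) did not pass (limma adjusted p = 0.315).

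Egfl7 encodes a secreted factor that endothelial cells lay down around themselves, and its main probe was the brightest of the 13. It read 12.17, 11.91 and 11.95 in the control pools and 11.79, 11.76 and 11.69 in the mutant pools, without overlap. The change was -0.26 (SE 0.10, 95% interval -0.50 to -0.03, limma adjusted p = 0.166). Its second probe read 10.01, 9.53 and 9.83 against 9.40, 9.39 and 9.40, with a change of -0.39 (SE 0.13, limma adjusted p = 0.140 over all kept probes). The third, which stayed near background and was not detected in control pool 1 (detection p 0.0927), gave 0.08 (SE 0.20). The 2 bright probes of Egfl7 thus had the same sign, and neither passed.

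**Figure D2:**
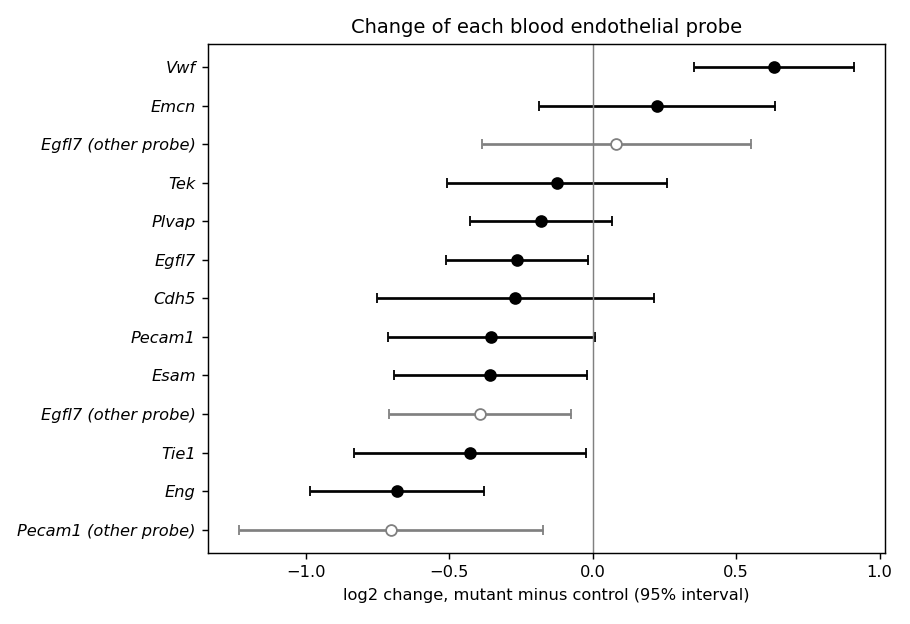
Log2 change (pools labelled mutant minus pools labelled control) with its 95% interval for each of the 13 probes of the blood endothelial genes, from the fit over all kept probes. Filled points stand for the gene and open points are further probes. The intervals of Vwf and Eng lie on opposite sides of 0, and no other probe passed. Of the other 11 probes, 9 have a change below 0, and 5 of these have an interval wholly below 0 before adjustment.

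The genes differed in how precisely they were measured. The standard error over beads was 2.36% to 6.88% of the signal on the 13 probes, each read from 22 to 63 beads. The SD between pools of one group, pooled over both groups, had a median of 0.20 over the 10 genes and of 0.16 over all genes, and it was lowest in Plvap and Egfl7 (0.10 each) and highest in Cdh5 (0.30). The mutant arrays were brighter overall before normalization. In raw signal 5 of the 10 genes had the higher mean in the mutant pools, and 3 of these 5 (Cdh5, Tek and Plvap) were below 0 after normalization. With arrays scaled by their median alone the changes were -0.20 for Cdh5, -0.04 for Tek and -0.10 for Plvap.

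The 10 genes also shared differences between single pools. Averaged over the 10, with each gene centred on its own mean, the pools read 0.19, 0.09 and -0.01 in the control group and 0.07, -0.12 and -0.23 in the mutant group. Control pool 3 was therefore lower than mutant pool 1, and the mean profile did not separate the groups. Control pool 1 was the highest of the 6 pools for 5 of the 10 genes, and mutant pool 3 was the lowest for 5. Outside the 10 genes, the profiles nearest to this mean over the 6 arrays were those of Man2a1, Plekhg4 and Camkk2, with root mean square distances of 0.0315, 0.0320 and 0.0335 on the log2 scale. The nearest to Vwf were Ocln, Amph and Dusp4 (0.0731, 0.0785 and 0.0797).

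**Figure D3:**
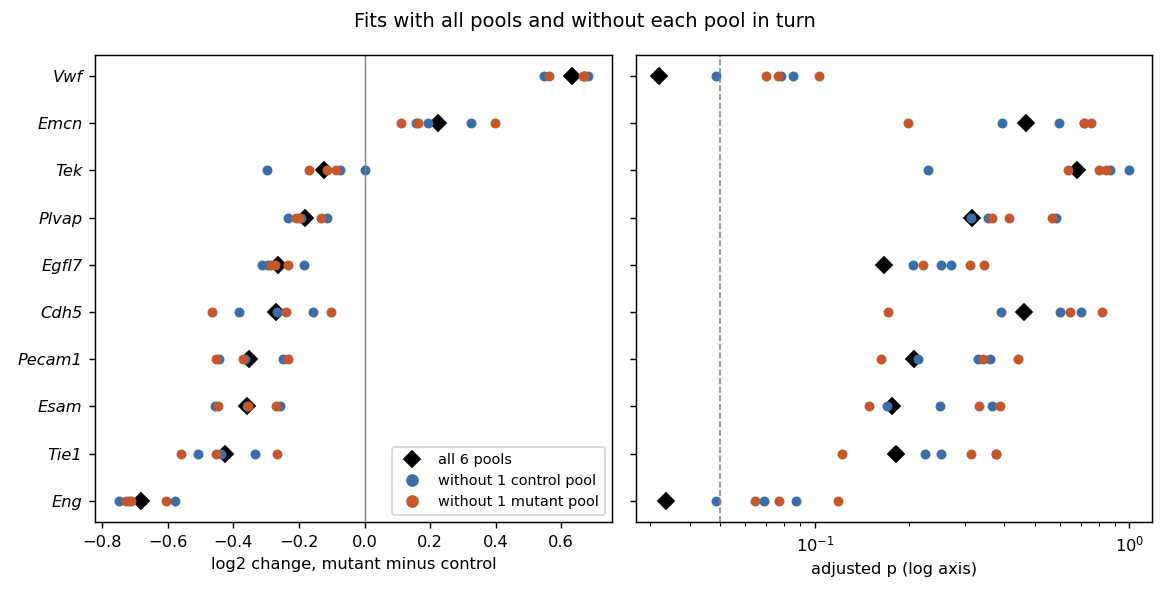
Left, log2 change of each blood endothelial gene with all 6 pools (diamonds) and without each pool in turn (circles, blue for a control pool and orange for a mutant pool left out). Right, the adjusted p of the same fits on a log axis with the threshold of 0.05 as a dashed line. Vwf and Eng pass with all pools and without control pool 1, and the other 8 genes stay above the threshold throughout.

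RefSeq promoter windows (GRCm38.p6, 250 bases before to 50 after a start) were at hand for 5 of the 10 genes: Tek, Tie1, Eng, Emcn and Egfl7. Those of Eng, which fell, of Tie1, whose change was below 0, and of Emcn, whose change was above 0, are printed 5′ to 3′ along the gene. Marked in them is GGAA, the core of the binding site of ETS factors, the main family of endothelial transcription factors. The Eng window lies at chr2:32646345-32646644 on the + strand, that of Tie1 at chr4:118489800-118490099 on the - strand and that of Emcn at chr3:137340828-137341127 on the + strand. Capitals mark GGAA, or TTCC where it is on the other strand.
Eng: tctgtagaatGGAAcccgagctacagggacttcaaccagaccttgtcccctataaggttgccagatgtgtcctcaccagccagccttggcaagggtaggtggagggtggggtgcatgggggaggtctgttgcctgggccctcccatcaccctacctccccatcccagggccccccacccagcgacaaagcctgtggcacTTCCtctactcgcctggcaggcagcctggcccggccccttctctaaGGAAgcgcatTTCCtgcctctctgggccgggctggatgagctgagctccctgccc
Tie1: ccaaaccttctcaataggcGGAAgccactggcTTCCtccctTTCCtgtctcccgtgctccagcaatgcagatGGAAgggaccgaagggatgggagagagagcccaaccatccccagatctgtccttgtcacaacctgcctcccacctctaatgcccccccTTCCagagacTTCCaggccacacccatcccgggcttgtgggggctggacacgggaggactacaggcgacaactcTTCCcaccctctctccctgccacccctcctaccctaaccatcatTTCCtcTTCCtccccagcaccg
Emcn: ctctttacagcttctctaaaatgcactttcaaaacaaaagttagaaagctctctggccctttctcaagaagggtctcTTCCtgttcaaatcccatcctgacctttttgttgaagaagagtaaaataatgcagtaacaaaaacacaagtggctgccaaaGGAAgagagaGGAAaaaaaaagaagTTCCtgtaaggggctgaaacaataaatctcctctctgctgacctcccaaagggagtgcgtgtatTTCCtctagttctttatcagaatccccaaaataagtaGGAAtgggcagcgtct
The core GGAA was matched 4 times in the Eng window, 9 times in that of Tie1 and 6 times in that of Emcn, on either strand. In the windows not printed it was matched 2 times in Tek, and 5, 4 and 1 times in those of Egfl7. It was present in 96.0% of all 32851 windows of this length, with a median of 3 matches. The longer form CNGGAAG, which contains the core, was matched 2 times in Tie1, 1 time in Emcn and not in Eng or Tek. In the windows of Egfl7 it was matched 2, 2 and 0 times, and it was present in 31.9% of all windows. The SOX site ACAAT was matched 1 time in Emcn and 2 times in Tek, against 31.0% of all windows with a match, and the GATA site AGATAA in Tek alone of the 5 genes (11.2% of all windows). The windows of Eng and Tie1 were GC-rich (63.3% and 60.3%) and that of Emcn was not (41.0%, median of all windows 52.7%). A match is a run of letters and not a measured site.

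Further genes of blood endothelium were read beside the 10. None of the 15 tested of 20 listed endothelial genes passed limma's test, while 8 had an unadjusted p below 0.05, 12 had a change below 0, and the median was -0.40. The smallest p was that of Ramp2, the partner of the adrenomedullin receptor (change -0.52, SE 0.14, adjusted p = 0.0815). Whether this list differs from the 10 genes was not tested.

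Transcription factors of endothelium fell in part. Of 14 tested of 16 listed, 5 fell and 9 did not pass, with a median of -0.52, while 3.37% of all genes were called lower. In RNA of whole tracheas the cells in which these genes changed were not resolved. Sox18, a factor of blood and lymphatic vessel growth, went from 8.85 to 7.85 (change -0.999, SE 0.09, limma adjusted p = 0.0065). Gata2, a zinc finger factor of endothelium and blood progenitors, fell by 0.88 (SE 0.18, limma adjusted p = 0.0428). Klf2, which is induced by blood flow, fell by 0.85 (SE 0.14, limma adjusted p = 0.0280), and the ETS factor gene Elk3 by 0.60 (SE 0.10, limma adjusted p = 0.0263). Of these Sox18 kept its call in all 6 fits without 1 pool, and Gata2, Klf2 and Elk3 lost theirs in at least 4 of them (adjusted p up to 0.127, 0.106 and 0.108). The list count was 3 with the mean of the kept probes, with median scaling or with no filter. In the other direction Epas1, a hypoxia-inducible factor named after its values were seen, had a change of 0.82 (SE 0.19, limma adjusted p = 0.0613) with no overlap between groups.

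Partners of the Tie receptors were mostly not called. Of 7 tested of 8 listed, 1 fell: Svep1, a large matrix protein that binds Tie1 (change -0.74, SE 0.13, limma adjusted p = 0.0292). Around endoglin, 2 of 10 tested genes of 14 listed fell. They were Id1 (-0.78, SE 0.12, limma adjusted p = 0.0242) and Id3 (-0.77, SE 0.09, limma adjusted p = 0.0117), targets of BMP signals in many cell types. The median of this list was -0.23, with 9 of 10 changes below 0. Svep1 lost its call in each fit without 1 pool (adjusted p up to 0.108), Id1 in 4 of 6 (up to 0.101) and Id3 in 1 of 6 (0.0505).

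Of 11 tested genes of junctions, out of 13 listed, 1 rose and 1 fell, with a median of -0.02. Ocln, which encodes the tight junction protein occludin of epithelium and some endothelium, rose by 0.61 (SE 0.11, limma adjusted p = 0.0318; 0.38 without background correction). Magi1, a scaffold of cell junctions, fell by 1.11 (SE 0.13, limma adjusted p = 0.0122; -0.55 without background correction, and -0.24 at an adjusted p of 0.320 with the mean of its kept probes). Ocln lost its call in each fit without 1 pool (adjusted p up to 0.0968), and Magi1 in 1 of them (0.0562).

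Genes tied to the secretion and action of von Willebrand factor were read beside Vwf. Of 8 tested of 12 listed, 2 fell and none rose, with a median of -0.09 and 3 at an unadjusted p below 0.05. Thbd, which encodes the anticoagulant receptor thrombomodulin, fell from 10.26 to 9.08 (change -1.17, SE 0.20, limma adjusted p = 0.0288). Thbd kept its call in 1 of the 6 fits without a pool (adjusted p up to 0.111).

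Vessel subtypes were read through short lists in which no gene passed limma's test. The arterial list had 7 genes tested, with 2 at an unadjusted p below 0.05, a median of -0.19 and Unc5b, a netrin receptor, foremost (change -0.43, SE 0.11, adjusted p = 0.0752; -0.13 without background correction). Of the venous list 3 genes were tested, with 1 at an unadjusted p below 0.05 and a median of 0.07, led by Nr2f2, a factor of venous identity (change 0.43, SE 0.12, adjusted p = 0.0790; 0.52 at an adjusted p of 0.0473 with median scaling, and 0.27 without background correction). Of the capillary and tip cell list 3 were tested, with 2 at an unadjusted p below 0.05 and a median of -0.67. Its smallest p was that of the water channel gene Aqp1 (change -0.67, SE 0.18, adjusted p = 0.0843).

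Markers of other cells that touch or share genes with blood vessels were set beside these values. Their part in the changes of the 10 genes was not tested. In the lymphatic list 3 of 6 tested genes fell and all 6 were below 0 (median -1.09). Lyve1, the hyaluronan receptor of lymphatic endothelium and of some macrophages, fell by 1.57 (SE 0.27, limma adjusted p = 0.0280), the chemokine gene Ccl21a by 1.28 (SE 0.15, adjusted p = 0.0100), and Thy1, which fibroblasts also make, by 1.25 (SE 0.15, adjusted p = 0.0126). Lyve1 lost its call in 4 of the 6 fits without 1 pool, Thy1 in 2 and Ccl21a in 1 (adjusted p up to 0.0888, 0.0623 and 0.0562), and the list count ranged from 0 to 5 in them. The summed normalized intensity of the lymphatic list ranged from 17970 to 19414 in the control pools and from 12030 to 13113 in the mutant pools. For the 10 blood endothelial genes the sum ranged from 10318 to 11996 and from 8954 to 10718, which overlap. Such a sum weighs its brightest genes most. In the lymphatic list these were Pdpn (mean 13.07 in the control and 12.92 in the mutant pools) and Ccl21a (12.32 and 11.04). Among the 10 genes Egfl7 was the brightest (12.01 and 11.75).

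Around the vessels, 2 of 9 tested pericyte and mural genes fell, Higd1b (change -0.73, SE 0.11, limma adjusted p = 0.0235) and Cox4i2 (-0.72, SE 0.12, adjusted p = 0.0249), both known in lung pericytes. Without background correction their changes were -0.33 and -0.22, and Cox4i2 lost its call (limma adjusted p = 0.063). The list had a median of -0.42, and its sum was 1664 to 1932 in the control pools and 1384 to 1525 in the mutant pools. In the smooth muscle list 2 of 6 tested genes fell, Actg2 (-0.86, SE 0.16, limma adjusted p = 0.0337) and Tagln (-0.65, SE 0.13, adjusted p = 0.0422; -0.41 without background correction). The sum of this list was 23195 to 31926 in the control pools and 16457 to 24575 in the mutant pools, which overlap. It was lowest in mutant pool 3, as were 5 of the 10 endothelial genes, and a link between them was not tested. The 4 genes of both lists that fell lost their calls in at least 3 of the 6 fits without 1 pool (adjusted p up to 0.141).

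Platelets and their precursors also carry von Willebrand factor, and their markers were read for that reason. None of 7 tested of 10 listed passed limma's test (1 at an unadjusted p below 0.05), and the median was -0.10. Pf4, the platelet chemokine, had a change of -0.76 (SE 0.21, adjusted p = 0.0884). The summed intensity of the list ranged from 1741 to 2593 in the control pools and from 1387 to 1434 in the mutant pools, while Vwf was higher in each of the latter.

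In the macrophage list 2 of 12 genes rose, Aif1 (0.58, SE 0.12, limma adjusted p = 0.0455; 0.37 without background correction) and Ms4a7 (0.55, SE 0.12, adjusted p = 0.0474), with a median of -0.04 and overlapping sums (10680 to 12419 and 12302 to 13655). Both lost their calls in each fit without 1 pool (adjusted p up to 0.139). No gene of the tracheal epithelium list passed limma's test (8 tested, 6 at an unadjusted p below 0.05), and 7 of 8 were above 0 with a median of 0.34. Foxj1, the regulator of motile cilia, had the smallest p (change 0.64, SE 0.15, adjusted p = 0.0556). In the chondrocyte list 6 of 10 tested genes fell, with sums of 9817 to 11581 in the control pools and 1693 to 1815 in the mutant pools. They were led by Col2a1, Hapln1 (at least 6.50-fold lower, since no mutant pool gave it a signal over background), Matn1 (change -2.85, SE 0.19; detected in 1 of 3 mutant pools, and -1.09 without background correction) and Col9a2 (-2.46, SE 0.13). The count of 6 includes Hapln1, which passed the detection filter only through the control pools.

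**Figure D4:**
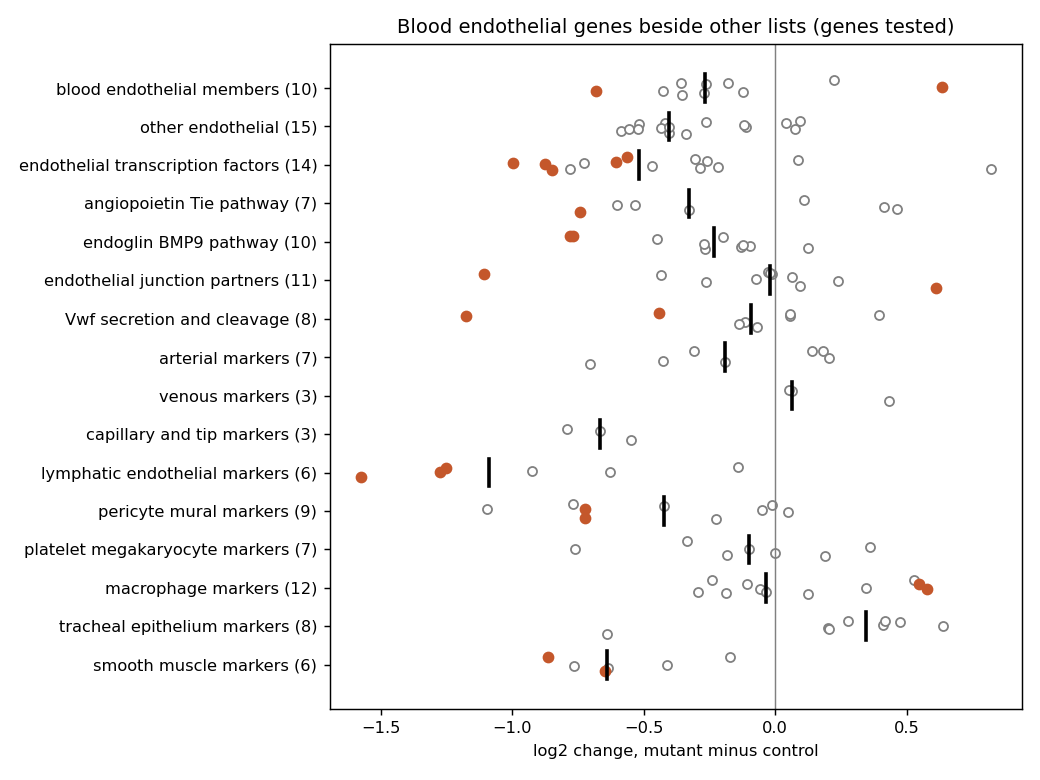
Log2 change (pools labelled mutant minus pools labelled control) of each tested gene in the lists described, with the number of tested genes in brackets. Filled orange points passed at an adjusted p of 0.05, open points did not, and black bars are list medians. The blood endothelial genes hold 1 called gene on each side of 0 and have a median of -0.27. The chondrocyte list lies beyond this scale and is left out.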

How the data were processed

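Intensities of RNA from tracheal pools were read on Illumina bead arrays. The authors deposited, per the file headers, each probe's raw mean intensity, its standard error over beads, the bead count, and a detection p-value in steps of 1 in 798. They also deposited log2 values in a series table and in a limma table with p-values and moderated scores (t and log odds), made with limma 3.26.9 in R 3.2.3 per the submitters' processing notes. That table's log2 fold change is the mutant minus the wild-type mean. The other steps are not given in the sources used here.

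Here raw intensities were corrected and quantile-normalized with neqc in limma 3.58.1 (R 4.3.3), with an offset of 16. A probe entered the fit if 3 or more of the 6 arrays detected it at p below 0.05 (14711 did). Symbols were updated through RefSeq GRCm38.p6 synonyms (5218 of 18120). The brightest kept probe stood for a gene, which left 10831. The groups were compared with lmFit and eBayes without covariates, two-sided, adjusted by Benjamini-Hochberg at 0.05. The members and lists were chosen with earlier results of these data known. Named genes were all members with every probe, up to 4 called genes of each list by size or else the one with the smallest p, Sox9 and Col2a1, and the 3 nearest profiles to the members' mean and to Vwf. One gene picked by this rule is not reported here, though list counts include it. Precision is limited by the number of arrays. Alternatives were other corrections, normalizations, value sources, filters, probe summaries and variance models, a pool block, and each pool left out.

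Pool numbers were the same in both groups, but pools were mixed at random, so the numbers pair nothing. Same-numbered pools deviated with correlations of -0.0093, -0.085 and -0.103 over 10831 genes, and differently numbered pools with -0.054 to 0.111. Deviations were centred within each group, so these correlations depend on each other and do not by themselves decide the point.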

Additional observations from a re-analysis of the deposited data

How the results depend on the processing

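The 10 changes were recomputed under 17 alternatives. The sign held in 169 of 170 values. The exception was Tek, which ranged from -0.30 to 0.0016 over the fits without 1 pool. The 8 genes that did not pass were called under no alternative (lowest adjusted p 0.0641, Egfl7 with a variance trend). The counts of members called higher and called lower were 1 each under all alternatives that kept the 6 pools and used no block. Without 1 pool they ranged from 0 to 1. With pool number as a replicate block, which pairs nothing here, both were 0 (adjusted p of 0.0698 for Vwf and 0.0663 for Eng), and 122 genes of all were called in place of 599. The median of the members ranged from -0.37 to -0.19 without 1 pool. It was -0.20 with median scaling, -0.19 without background correction and -0.23 with the mean of the kept probes. With that mean, Pecam1 was at -0.53 (adjusted p = 0.0729). Over all genes, 1082 were called with trend and robust variances, 951 without background correction, 391 with no filter and 87 to 572 without 1 pool. With median scaling 639 were called and 54.8% of these were higher, against 39.1% of 599. The cause was not tested. Of the 25 called genes outside the members that the naming rule picked, 5 kept the call in each fit without 1 pool and 20 lost it at least once (adjusted p up to 0.141), with no change of sign. The 25 include Sox9 and Hapln1, and the 5 include Hapln1. Both genes passed the detection filter only through the group where they were higher, so their calls carry no weight here. With 3 pools a group, changes of the size seen in most of the 10 genes lay within intervals that reach 0 or nearly so. Among the lists, the arterial median was 0.04 with no filter, and up to 4 epithelial genes, and 1 gene each of the other endothelial, arterial, platelet and capillary lists, passed with a variance trend or without background correction. Epithelial genes also passed at an offset of 50 (2), with median scaling (2) and with detection on all 6 arrays (1). In the venous list 1 gene passed with median scaling. Among endothelial transcription factors 1 was called higher with a variance trend, without background correction, at an offset of 50, with median scaling, with the mean of the kept probes and without control pool 1. The counts of endothelial transcription factors lower were 1 to 3 without 1 pool and 1 with the block.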
